A study of Mus musculus with 33 samples.

Results

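The sites described here are genomic positions at which the transcription factor Oct4 was called in wild type (WT) mouse embryonic stem cells (mESC) but not in Uhrf1 knockout (KO) mESC, and at which KO cells had a new summit of Nanog. A WT Oct4 summit was taken as a member when no KO Oct4 summit lay within 100 bp, a KO Nanog summit without a WT Nanog summit within 100 bp lay within 100 bp, and no such KO-specific Sox2 summit did. This rule, after the 100 bp distance the study used between peaks, took 1318 of 12898 WT Oct4 sites (10.2%), or 10.4% of the 12654 WT-specific ones (interval 9.90 to 11.0). They are called Nanog-gain sites below. The other WT-specific sites were 2045 Sox2-gain sites, 1301 dual-gain sites with both new factors, and 7990 no-gain sites with neither, and 244 further sites kept a KO Oct4 summit.

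The study asked how Uhrf1, a protein that binds histone H3 and hemimethylated DNA, shapes histone marks and factor binding in pluripotent cells. Of 33 samples, 25 had a list of enriched regions and 8 were inputs, which were not used here. The WT group was the E14 mESC line, undifferentiated and kept in serum with leukemia inhibitory factor on gelatin or feeder-coated plates, and the KO group was a Uhrf1-null mESC line kept in the same way. Both were also differentiated as embryoid bodies (EBs) to weeks 1, 2 and 3, from hanging drops in a serum medium with transferrin, ascorbic acid and monothioglycerol. Both lines came from another group. Each genotype was 1 line and each combination of genotype, stage and antibody was 1 library, so no spread between replicates exists and no p-value is given. The 95% intervals, by the Wilson method for shares and the Newcombe method for differences, allow for counting error over the sites of 1 library and for nothing else.

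Oct4, encoded by Pou5f1, is a POU factor that holds the pluripotent state and commonly binds DNA beside the HMG-box factor Sox2 at a joined Sox-Oct element. Nanog is a homeobox factor that shares many enhancers with both. A ChIP-seq summit marks the base where reads of the recovered DNA pile up highest, so a summit of another factor at the same place shows that this factor was recovered there too, not that it sits on the same molecule.

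A few of these sites are shown as mm9 genome sequence reaching 50 bases to either side of the WT Oct4 summit, plus strand, with any match to a searched motif in capitals. The motifs were the POU octamer ATGCAAAT, the Sox-Oct element (TTGT, any base, then ATGCAAA), the Sox core CATTGT, the homeobox core TAATGG, a Klf site CCACACCC and the Esrrb site AAGGTCA, on both strands. The octamer and Sox-Oct letters overlap, and so can the Sox core and the Sox-Oct element. The first 4 lie at pluripotency genes and hold a Sox-Oct element or octamers, the next pair had tall KO Nanog summits, Uhrf2 lies in a Uhrf1 window, and the last pair are copies of U1 small nuclear RNA genes.

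Nanog, chr6:122657394-122657494: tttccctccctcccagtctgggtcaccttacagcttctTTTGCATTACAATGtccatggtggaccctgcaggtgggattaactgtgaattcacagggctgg
Esrrb, chr12:87819942-87820042: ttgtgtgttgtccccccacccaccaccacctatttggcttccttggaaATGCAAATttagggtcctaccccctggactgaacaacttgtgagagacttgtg
Klf4, chr4:55532635-55532735: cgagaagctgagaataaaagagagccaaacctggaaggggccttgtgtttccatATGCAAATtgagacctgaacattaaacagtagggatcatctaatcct
Lifr, chr15:7065831-7065931: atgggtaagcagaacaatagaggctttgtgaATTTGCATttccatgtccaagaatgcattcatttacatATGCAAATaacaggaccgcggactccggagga
Echdc2, chr4:107855066-107855166: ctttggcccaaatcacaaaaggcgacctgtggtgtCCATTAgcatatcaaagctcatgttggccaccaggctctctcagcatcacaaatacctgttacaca
Stoml1, chr9:58127317-58127417: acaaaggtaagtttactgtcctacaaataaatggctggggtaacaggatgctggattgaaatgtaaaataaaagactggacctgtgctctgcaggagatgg
Uhrf2, chr19:30103556-30103656: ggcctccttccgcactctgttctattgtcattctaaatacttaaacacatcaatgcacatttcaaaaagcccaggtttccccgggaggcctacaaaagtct
U1 on chromosome 11, chr11:87236418-87236518: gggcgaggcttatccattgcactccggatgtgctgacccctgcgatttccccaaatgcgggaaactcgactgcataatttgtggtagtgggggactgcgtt
U1 on chromosome 12, chr12:55811343-55811443: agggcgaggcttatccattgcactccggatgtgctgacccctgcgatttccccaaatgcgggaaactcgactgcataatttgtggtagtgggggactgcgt

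The Nanog window holds a reversed Sox-Oct element, and the Lifr window holds 2 octamers. The Uhrf2, Stoml1 and U1 windows hold none of the 6 motifs, which says only that these letters are absent from these bases. The U1 windows, on different chromosomes, share an unbroken run of 100 bases.

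Before any result, the lists themselves limit what an absent summit means. The KO Oct4 list held 576 summits with a lowest height of 11 reads and a median of 22, whereas the WT list reached a median of 37. The KO Nanog list, at 10632 summits, had a lowest height of 5 and a median of 12, against 9 and 21 for the 2390 summits of the WT Nanog list. The study's sequencing summary gives more reads for the WT than for the KO library of both Oct4 and Nanog, and heights are not scaled to depth. At 179 of the 1318 sites (13.6%) the KO Nanog summit was lower than the lowest summit of the WT Nanog list, and at 1119 (84.9%) it was lower than that list's median. As a check of the cells, 7 of 8 embryonic stem cell genes had WT H3K4me3 at their start, but so did 4 of 4 fibroblast genes, so this mark does not tell the cell types apart. The Uhrf1 start carried H3K4me3 in both genotypes, which checks nothing about the knockout.

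The summit heights are what the rule selected from and are given as a description. WT Oct4 height at the Nanog-gain sites ran from 18 to 161 reads with a median of 47.5, above the median of 37 for all WT Oct4 sites, of 38 for Sox2-gain sites and of 32 for no-gain sites. Of the WT-specific Oct4 sites, Nanog-gain sites made up 2.76% of the lowest of 5 equal height groups (11 to 25 reads) and 19.0% of the highest (58 to 161). KO Nanog height ran from 5 to 75 with a median of 13, and 415 sites (31.5%) had at most 10 reads. The KO Nanog summit lay a median of 29 bp from the WT Oct4 summit, within 50 bp at 990 sites (75.1%), and each site had a Nanog summit of its own. At the threshold, the sites near Gm9915 and Tet1 had their Nanog summit at 100 bp, with WT Oct4 heights of 63 and 44 and KO Nanog heights of 14 and 19. One base beyond the limit lay no-gain sites near Nme7 (84 and 11) and Col18a1 (27 and 23).

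Most of these sites were not bound by Nanog alone in KO cells. A WT Sox2 summit lay within 100 bp of 816 sites (61.9%) and a KO Sox2 summit of 740 (56.1%), against 24.2% and 46.0% of all WT Oct4 sites. The rule shapes these shares, since a site that gained Nanog and had a KO-specific Sox2 summit was placed with the dual-gain sites. They are therefore given with no comparison between classes. Within 100 bp of the Oct4 summit, Sox2 was listed in both genotypes at 724 sites (54.9%, interval 52.2 to 57.6). It was listed in WT only at 92 (6.98%), in KO only at 16 (1.21%) and in neither at 486 (36.9%). By the rule, the KO Sox2 summit at each of the 16 had a WT Sox2 summit within 100 bp of itself. That WT summit lay more than 100 bp from the Oct4 summit, so these 16 are not sites of new Sox2. The rule bars only a Sox2 summit that is new in KO, so a site with Sox2 already in WT remains a member, and the name of Nanog replacement alone fits the 486 sites better than the class. A WT Nanog summit lay within 100 bp of 17 sites (1.29%, against 12.9% of all WT Oct4 sites), a value that the rule largely fixes.

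The 724 sites with Sox2 in both genotypes are therefore sites that in WT had Oct4 with Sox2, and in KO had Sox2 with Nanog. Their median Sox2 height was 25 in WT and 41 in KO, and the KO summit was the taller at 619 (85.5%). Over all 3352 Sox2 sites shared by the genotypes the medians were 26 and 39 and the KO summit was taller at 77.8%. Taller KO summits were thus common throughout this pair of libraries, and library depth and binding cannot be told apart. WT Oct4 was a median of 57.5 reads at the 724 sites and 38 at the 486 without Sox2, and KO Nanog 15 and 11.0.

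**Figure D1:**
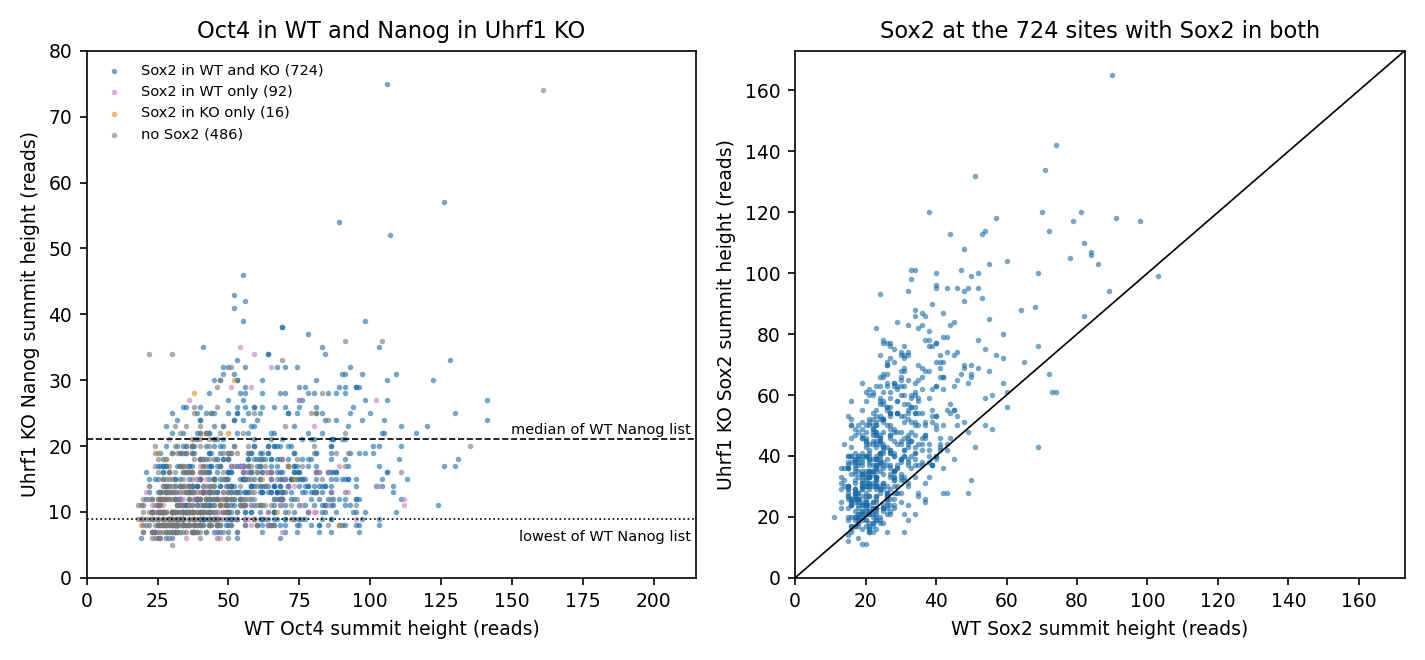
The left panel plots each Nanog-gain site by WT Oct4 summit height and KO Nanog summit height (reads), coloured by whether a Sox2 summit lay within 100 bp, with lines at the lowest (9) and median (21) height of the WT Nanog list. The right panel plots WT against KO Sox2 height at the 724 sites with both, where the line marks equal heights and 619 points lie above it.

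Motifs under the summit were compared next. Genome sequence does not enter the rule, but the rule sorts the classes by Sox2 state, and motif shares differ by Sox2 state as given below. Of 1313 sites with sequence, the octamer was within 50 bp at 155 (11.8%, interval 10.2 to 13.7), against 8.82% of all WT Oct4 sites. The octamer centre lay a median of 15.5 bp from the WT Oct4 summit and 36.5 bp from the KO Nanog summit. Octamers were searched only within 50 bp of the Oct4 summit, so the search itself favours the shorter Oct4 distance and the pair shows no preference. The share was 4.80 points above no-gain sites (3.07 to 6.74), with 2.27 (0.340 to 4.19) when averaged within 5 equal groups of WT Oct4 height and 1.58 (-0.501 to 3.94) among sites of unshared sequence, defined below. Against Sox2-gain sites it was 1.99 points (-0.146 to 4.21) and turned to -0.615 within height groups (-3.07 to 1.84), and against dual-gain sites -3.35 (-5.97 to -0.730).

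The Esrrb and Sox motifs were more frequent than at no-gain sites, also within height groups, and the other motifs less clearly so. Only the octamer was also compared among sites of unshared sequence, so whether the Esrrb and Sox differences hold there is not known. The Esrrb site, bound by the orphan receptor Esrrb, was at 94 (7.16%, against 4.38% of all WT Oct4 sites), 3.65 points above no-gain sites (2.31 to 5.22) and 2.15 above Sox2-gain sites (0.511 to 3.90), and 2.88 and 2.06 points above them within height groups. Against dual-gain sites the difference was 1.39 (-0.504 to 3.29). The Sox core was at 154 (11.7%, against 7.88%), 5.67 points above no-gain sites (3.95 to 7.60) and 3.04 above Sox2-gain sites (0.953 to 5.22), with 3.30 and 2.77 within height groups. Against dual-gain sites it was -1.66 (-4.20 to 0.889). The Sox core was at 16.0% of Nanog-gain sites with Sox2 in both genotypes and 6.43% of those without Sox2, against 6.05% of no-gain sites. The part of the sorting by Sox2 state in the class differences was not tested. The homeobox core was at 74 (5.64%, against 4.37%), the Klf site at 29 (2.21%, against 1.65%) and the joined Sox-Oct element at 18 (1.37%, against 0.764%). The homeobox share exceeded that of no-gain sites by 2.12 points (0.913 to 3.55), but by 0.859 (-0.529 to 2.25) within height groups, and it was below the 8.08% of dual-gain sites by -2.44 points (-4.40 to -0.502), or -1.90 within height groups (-3.78 to -0.0286). The Klf difference from no-gain sites was 0.506 points (-0.229 to 1.49), and the Sox-Oct difference was 0.769 (0.230 to 1.57) and 0.396 within height groups (-0.296 to 1.09).

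The motifs also divided the Nanog-gain sites by their Sox2 state, where the comparison is within the members. The Sox core was at 16.0% of sites with Sox2 in both genotypes and 6.43% of sites without Sox2, a difference of 9.61 points (6.04 to 13). The Sox-Oct element was at 15 of 723 against 1 of 482. The homeobox core went the other way, at 4.15% and 8.71% (difference -4.56, -7.67 to -1.77), and so did the octamer, at 10.2% and 14.7% (difference -4.50, -8.48 to -0.727). Within height groups these differences were 12.4 (Sox), 1.84 (Sox-Oct), -4.77 (homeobox) and -5.46 points (octamer), each with an interval that left out 0. Sites without Sox2 thus held more octamers and homeobox cores, and fewer Sox cores, than sites with it.

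Sequence shared between sites touches many of the results on chromatin. A site was called shared when 31 bases of its 201 bp window, on either strand, also occurred at another WT Oct4 site. The rest of the genome was not searched, so an unshared site can still hold repeated sequence. This held for 421 of 1313 Nanog-gain sites (32.1%, interval 29.6 to 34.6), against 43.3% of all WT Oct4 sites and 49.6% of no-gain sites. The authors kept 1 alignment for each read, so a read that matches several copies is placed at one of them. Shared and unshared members had similar heights, with median WT Oct4 heights of 46 and 49 and a median KO Nanog height of 13 in both.

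The clearest family was that of U1, the small nuclear RNA that pairs with the 5′ splice site. Of the Nanog-gain sites, 13 lay in genes annotated as U1, on 5 chromosomes, among 21 such sites in all (0.990% of members, against 0.165% of all WT Oct4 sites). The other 8 were 7 no-gain sites and 1 kept site, and no Sox2-gain or dual-gain site lay in a U1 gene. The rule makes a Sox2-gain or dual-gain call unlikely where WT Sox2 is listed, as it was at all 13. The absence is therefore no contrast between classes. The 13 summits fell 78 to 104 bp into the gene and their windows shared runs of at least 52 bases with each other, with a median over 78 pairs of 73. Their values were close: WT Oct4 height was 71 to 97 reads (median 90), KO Nanog height 21 to 31 (median 28), WT Sox2 height 59 to 98 and KO Sox2 height 71 to 118. All 13 had Sox2 in both genotypes, and all 13 were of shared sequence, so they are not 13 independent places.

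Gm16382 was the coding gene nearest to the most Nanog-gain sites, 5, and all 5 were U1 copies on chromosome 12, with Oct4 heights of 88 to 97. Cntn5, Igfbp3, Spaca7 and Trim24 followed with 4 sites each. Cntn5, a neural adhesion protein, had 4 of its 11 WT-specific Oct4 sites in the class, with Oct4 heights of 34 to 59 and none in a WT H3K4me3 domain. Trim24, a bromodomain protein, had 4 of 7, with heights of 30 to 85.

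Uhrf1 windows were rare at these sites, as they were at unshared WT Oct4 sites in general (90 of 7202, 1.25%). The Uhrf1 list covered 5.14% of the chromosomes. In WT mESC, enrichment of Uhrf1 over input was listed in windows of 10 kb, and 38 Nanog-gain sites lay in one (2.88%, interval 2.11 to 3.93), against 11.0% of all WT Oct4 sites, 7.73% of Sox2-gain sites and 14.4% of no-gain sites. Against the 4.0% of dual-gain sites the difference was -1.11 points, with an interval that held 0 (-2.55 to 0.292). The difference was -4.84 points from Sox2-gain sites (-6.30 to -3.34) and -11.5 from no-gain sites (-12.6 to -10.2). Both shrank within height groups, to -3.20 and -4.67 points. Of the 38 sites, 32 were of shared sequence. Among unshared sites the share was 0.673% at Nanog-gain (6 of 892), 0.895% at Sox2-gain, 0.665% at dual-gain and 1.55% at no-gain sites, and the differences were -0.222 (-0.978 to 0.653) and -0.877 points (-1.44 to -0.0193). Of all WT Oct4 sites in a Uhrf1 window, 93.7% were of shared sequence, and the part of read placement in this was not tested.

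Among the sites in a Uhrf1 window, the tallest KO Nanog summit (52 reads) lay at chr19:30103606, 1397 bp upstream of Uhrf2, the paralog of Uhrf1. Its WT Oct4 height was 107, its Sox2 height 35 in WT and 54 in KO, and its sequence was not shared. It was in H3K4me3 in both genotypes, in H3K27me3 in WT only and in H3K9me3 in both. The next were the U1 copy at chr3:96290552, with Nanog at 21, and a site at chr19:61000633 in an intron of Grk5, a kinase of G protein-coupled receptors, with Nanog at 18.

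The 3 histone marks were then counted at the summits, by whether a deposited domain covered them. H3K4me3, the mark of active starts, covered 604 Nanog-gain sites in WT (45.8%, interval 43.2 to 48.5) and 487 in KO (36.9%, 34.4 to 39.6), against 38.0% and 29.8% of all WT Oct4 sites. H3K27me3, laid down by Polycomb, covered 348 (26.4%) in WT and 50 (3.79%) in KO, against 30.9% and 4.33%. H3K9me3, a mark of heterochromatin, covered 505 (38.3%) in WT and 733 (55.6%) in KO, against 41.6% and 53.2%. The H3K27me3 list itself covered 36.1% of the chromosomes in WT and 3.17% in KO, so the fall at these sites goes with a list that is short everywhere. The H3K9me3 lists covered 37.2% and 40.9%, and the H3K4me3 lists 8.14% and 7.10%. Domains were long, so a covered summit need not carry the mark itself. Those holding Nanog-gain sites had median lengths of 129.6 kb in WT and 360.0 kb in KO for H3K9me3, against 37.8 and 140.4 kb over all domains. For H3K27me3 these lengths were 146.7 and 366.0 kb, and for H3K4me3 16.9 and 20.8 kb.

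Most H3K4me3 at the Nanog-gain sites was kept. Of the 604 sites in a WT domain, 441 were in a KO domain (73.0%, interval 69.3 to 76.4), against 72.1% of all WT Oct4 sites in H3K4me3, and 46 of 714 unmarked sites gained it (6.44%, against 3.94%). The gain was 3.78 points above that of no-gain sites (2.13 to 5.86), but 0.0148 among unshared sites (-2.04 to 2.69). Of 348 sites in WT H3K27me3, 38 kept it (10.9%, against 11.2%), and of 505 in WT H3K9me3, 418 did (82.8%, against 79.2%). H3K9me3 was gained, in that a KO domain covered the summit, at 315 of the 813 sites without it in WT (38.7%). This compares with 34.7% of all WT Oct4 sites and 31.8% of no-gain sites, the latter a difference of 6.91 points (3.34 to 10.6). That difference was 2.47 points within height groups (-1.28 to 6.21) and -0.339 among unshared sites (-4.54 to 3.97). By the pair of marks, 486 sites in WT were active with H3K4me3 only (36.9%, against 28.7% of all WT Oct4 sites), 118 bivalent (8.95%, against 9.22%), 230 repressive with H3K27me3 only (17.5%, against 21.7%) and 484 without either (36.7%, against 40.4%). In KO these were 471 (35.7%, against 28.3%), 16 (1.21%, against 1.53%), 34 (2.58%, against 2.80%) and 797 (60.5%, against 67.4%).

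**Figure D2:**
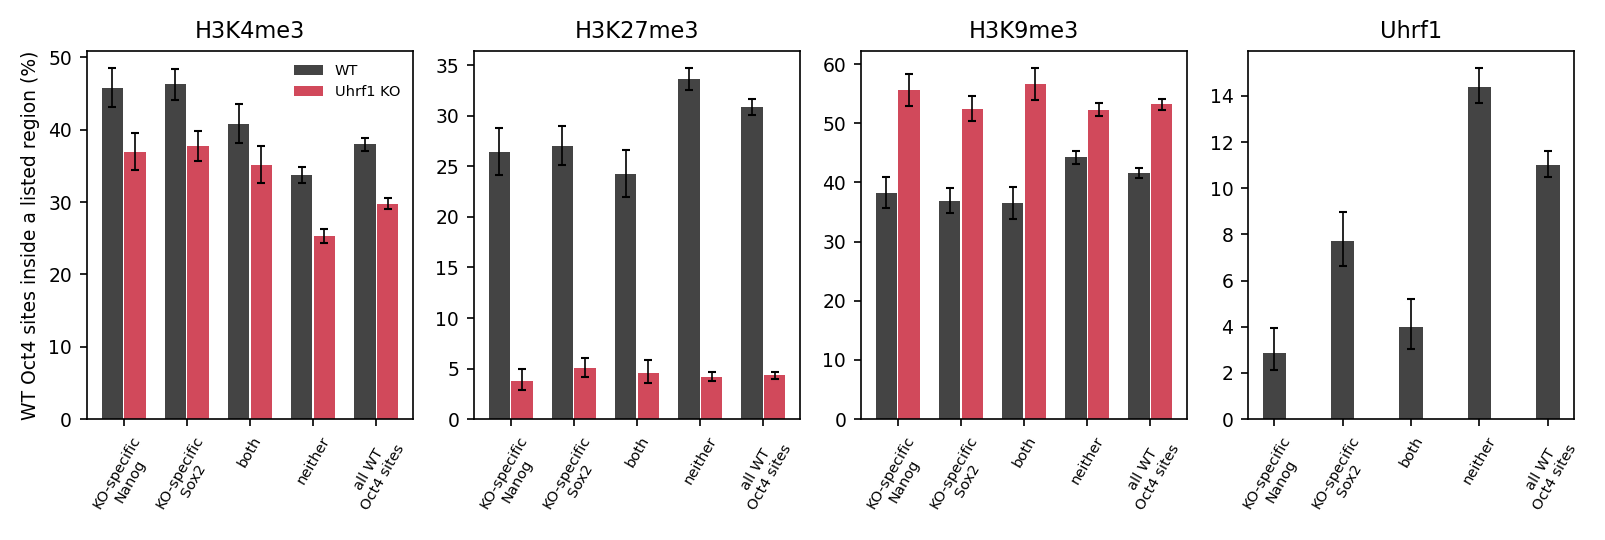
Bars give the share of WT Oct4 sites inside a listed region in mESC for Nanog-gain sites (KO-specific Nanog), Sox2-gain sites (KO-specific Sox2), dual-gain sites (both), no-gain sites (neither) and all WT Oct4 sites, in WT (grey) and Uhrf1 KO (red), with 95% Wilson intervals. The Uhrf1 share was 2.88% at Nanog-gain and 4.0% at dual-gain sites, with overlapping intervals, and 14.4% at no-gain sites, and the Nanog-gain H3K4me3 shares of 45.8% and 36.9% were near those of the Sox2-gain sites.

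Against no-gain sites, the sign of the H3K4me3 difference depended on whether sites of shared sequence were counted. WT H3K4me3 was 12.1 points more frequent at Nanog-gain than at no-gain sites (9.21 to 15.0), and 3.98 points within height groups (1.01 to 6.95). Among unshared sites the difference turned to -4.38 points (-8.00 to -0.764), since 51.8% of the unshared Nanog-gain and 56.2% of the unshared no-gain sites were covered, while 33.7% and 12.5% of the shared ones were. Against Sox2-gain sites it was -0.432 points (-3.87 to 3.02) over all sites and -6.82 (-11.0 to -2.61) among unshared ones. WT H3K9me3 was 5.94 points less frequent than at no-gain sites (-5.94, -8.75 to -3.07), but -1.47 (-4.75 to 1.95) among unshared sites. It was at 55.3% of shared and 30.5% of unshared Nanog-gain sites.

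**Figure D3:**
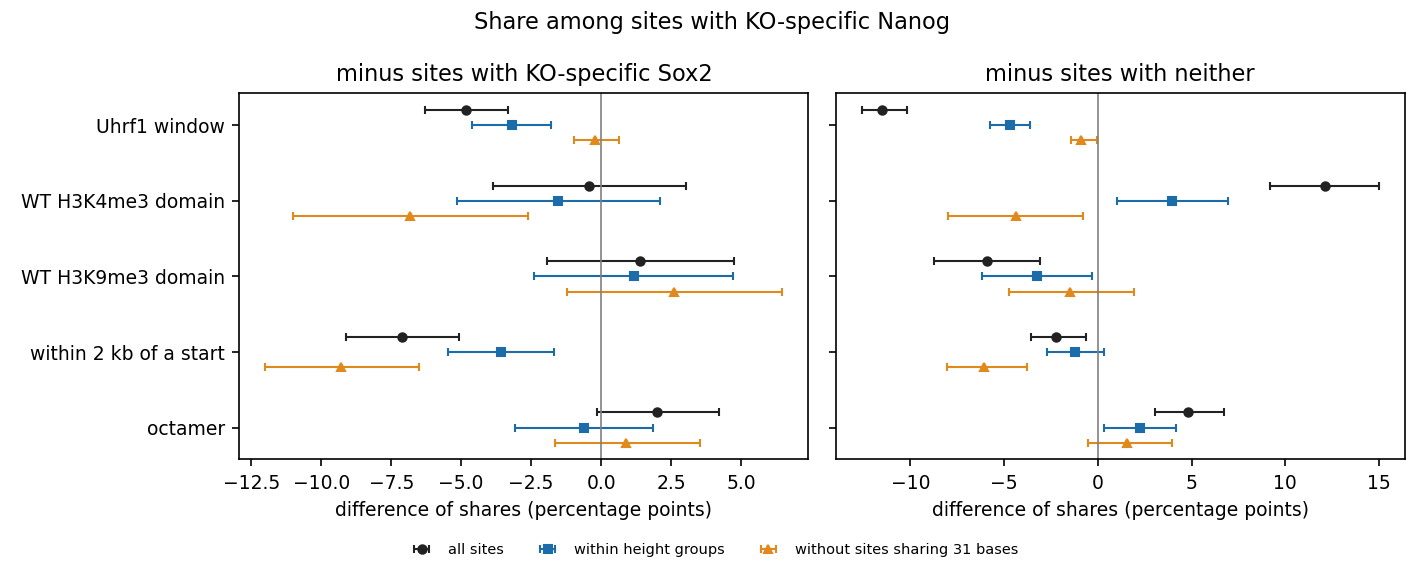
Each point is the share among Nanog-gain sites minus that among Sox2-gain sites (left) or no-gain sites (right) in percentage points with a 95% interval, for all sites (black), within 5 groups of WT Oct4 height (blue) and without sites that share 31 bases (orange). The WT H3K4me3 difference from no-gain sites goes from 12.1 to -4.38 without shared sites, and the Uhrf1 difference from -11.5 to -0.877.

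In the EBs, H3K4me3 at the Nanog-gain sites was less frequent in KO than in WT at week 1 and more frequent at weeks 2 and 3. It covered 16.7% of sites in WT and 9.64% in KO at week 1 (all WT Oct4 sites, 17.4% and 11.2%), 32.4% and 43.6% at week 2 (28.6% and 34.1%), and 40.3% and 46.1% at week 3 (32.8% and 36.5%). At week 2, 210 of the 891 sites without WT H3K4me3 were in a KO domain (23.6%), against 13.6% of all WT Oct4 sites. The same share was 597 of 5957 at no-gain sites, 16.2% at Sox2-gain, 20.2% at dual-gain sites and 46 of 115 at kept sites. The difference from no-gain sites was 13.5 points (10.8 to 16.5), 7.37 within height groups (4.34 to 10.4) and 4.72 among unshared sites (0.805 to 8.90). From Sox2-gain sites it was 7.39 points (4.01 to 10.8), and 2.31 (-2.45 to 7.16) among unshared ones. At week 3, 119 of 787 such sites were covered in KO (15.1%), against 9.82% of all WT Oct4 sites and 16.5% of dual-gain sites, 7.85 points above no-gain sites (5.41 to 10.6) and 2.48 (-1.04 to 6.44) among unshared ones.

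EB H3K27me3 covered 10.2% of the Nanog-gain sites in WT and 11.7% in KO at week 1, 30.4% and 19.3% at week 2, and 27.3% and 15.9% at week 3. All WT Oct4 sites gave 9.04% and 10.3%, 36.3% and 18.6%, and 27.9% and 16.5%. The mark was kept at 158 of 401 sites at week 2 (39.4%), 8.86 points above no-gain sites (3.93 to 14), but at 2.27 points within height groups (-3.02 to 7.56) and -5.30 among unshared sites (-12.3 to 1.72).

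**Figure D4:**
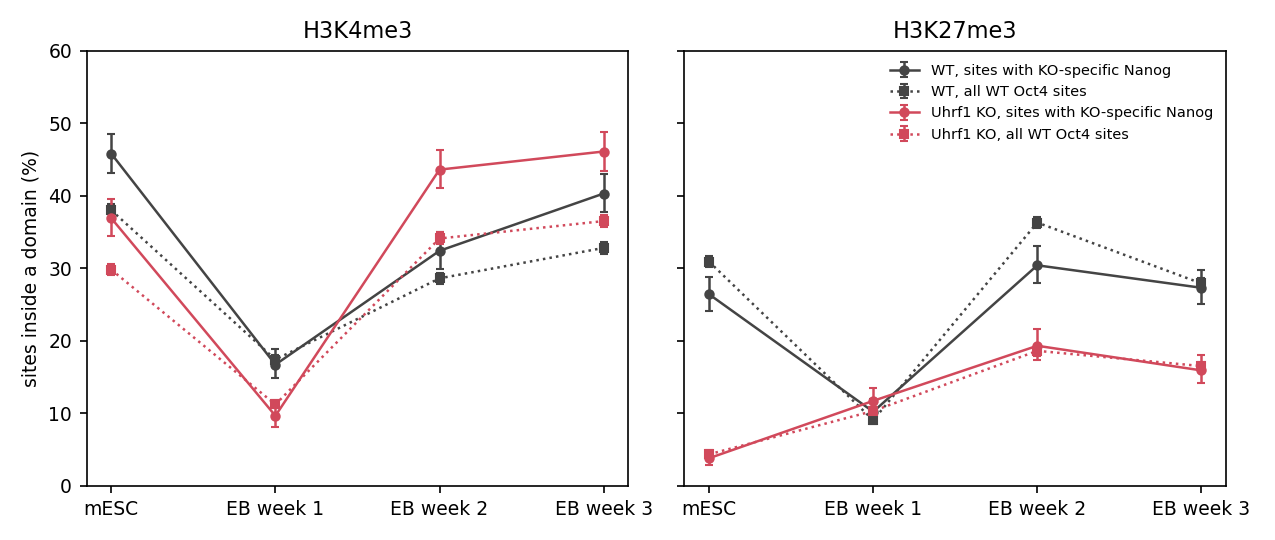
The share of sites inside an H3K4me3 (left) or H3K27me3 (right) domain is drawn for mESC and EB weeks 1 to 3 in WT (grey) and Uhrf1 KO (red), for Nanog-gain sites (solid, circles) and all WT Oct4 sites (dotted, squares), with 95% Wilson intervals and 1 library per point. The KO H3K4me3 share at Nanog-gain sites is below WT in mESC and at week 1 and above it at week 2 (43.6% against 32.4%) and week 3.

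Like WT Oct4 sites in general, most Nanog-gain sites were outside promoters. Of the 1313 on annotated chromosomes, 800 were intergenic (60.9%, against 64.1% of all WT Oct4 sites), 488 intronic (37.2%, against 32.8%), 18 in untranslated regions and 7 in coding exons. Only 87 were within 2 kb of the start of a protein-coding gene (6.63%, interval 5.40 to 8.10), against 9.17% of all WT Oct4 sites, while the median distance to a start was 34.3 kb, against 38.2 kb for all WT Oct4 sites and 44.3 kb for no-gain sites. The share was 7.12 points below that of Sox2-gain sites (-7.12, -9.10 to -5.07), with -3.59 within height groups and -9.30 among unshared sites. It was 2.21 points below no-gain sites (-2.21, -3.59 to -0.609), with -1.21 (-2.73 to 0.309) within height groups and -6.06 (-8.05 to -3.80) among unshared ones. Of 1151 genes nearest to a Nanog-gain site, 1026 had 1 site, 95 had 2, 24 had 3, 5 had 4 and 1 had 5.

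Pluripotency genes were frequent neighbours of WT-specific Oct4 sites, with Nanog-gain sites among them. Of 49 annotated genes of a list of pluripotency genes, 18 (36.7%) were the nearest coding gene to a Nanog-gain site, against 5.18% of all protein-coding genes. Since 45 of the 49 were nearest to some WT-specific Oct4 site, against 6515 of 22238 coding genes, this share partly counts how many sites these genes have. Of their 172 WT-specific sites 25 were in the class (14.5%, against 10.5% over all genes), a small count without an interval. WT Oct4 height at the 25 ran from 26 to 116 reads and KO Nanog height from 8 to 32. H3K4me3 covered 20 of the 25 in WT and 16 in KO, H3K9me3 6 and 16, and H3K27me3 6 and 3. Over all WT Oct4 sites the WT and KO shares were 38.0% and 29.8% (H3K4me3), 41.6% and 53.2% (H3K9me3), and 30.9% and 4.33% (H3K27me3). None was in a Uhrf1 window, 2 were of shared sequence, and 12 had Sox2 in both genotypes.

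At Nanog itself, which encodes the factor gained, the site at chr6:122657444 lay 63 bp upstream of the start. WT Oct4 was 116 reads there and KO Nanog 22, at 2 bp from the Oct4 summit, and Sox2 was 49 in WT and 95 in KO. It is the window shown above with the reversed Sox-Oct element, and H3K4me3 and H3K9me3 domains covered it in both genotypes. Given the domain lengths above, this does not place H3K9me3 at the start itself. A second site lay 4.89 kb upstream, with Oct4 at 37, KO Nanog at 16 and no Sox2. On the same chromosome, a site 1.47 kb into Gdf3, which encodes a TGF-beta family ligand, had Oct4 at 86, KO Nanog at 18 and Sox2 at 23 in WT and 55 in KO.

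Genes of other naive pluripotency factors followed. The site in an intron of Esrrb, 117.9 kb from its start, had Oct4 at 77 reads, KO Nanog at 15 at 4 bp, and Sox2 at 21 in WT and 35 in KO. Klf4, a zinc finger factor of the reprogramming set, had a site 12.7 kb downstream of its start, past the gene, with Oct4 at 40, KO Nanog at 12 and no Sox2, with the octamer shown above. Tbx3, a T-box repressor, had 2 sites, the taller 39.3 kb from the start with Oct4 at 77, KO Nanog at 29 and Sox2 at 25 in WT and 77 in KO. The Esrrb and Klf4 sites were in H3K4me3 in both genotypes and inside an H3K9me3 domain in KO, the Klf4 site also in WT. The taller Tbx3 site was in H3K4me3 and H3K27me3 in both.

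Nr5a2, an orphan nuclear receptor, had 2 intronic sites 6.65 and 7.54 kb from the start, with Oct4 at 54 and 26 and KO Nanog at 17 and 12. Sall1, a zinc finger factor, had sites with Oct4 at 55 and 41, KO Nanog at 17 and 8, and Sox2 in both genotypes, and the taller was in H3K4me3 in WT only. Mybl2, a cell cycle factor, had 2 sites with Oct4 at 81 and 70 reads and KO Nanog at 19 and 32, with Sox2 at 20 in WT and 44 in KO at the first and at 40 and 95 at the second. The Lifr site, 13.7 kb upstream of the gene of the leukemia inhibitory factor receptor, had Oct4 at 85, KO Nanog at 24 and no Sox2, with the 2 octamers shown above, and was in H3K4me3 in WT only. Fgf4, a growth factor gene, had a site 3.36 kb upstream of its start with Oct4 at 50, KO Nanog at 18 and Sox2 at 18 in WT and 26 in KO, also in H3K4me3 in WT only. Pim1, a kinase of the same signalling path as Lifr, had Oct4 at 73 and KO Nanog at 15, with Sox2 within 100 bp in KO only (52). By the rule, a WT Sox2 summit lay within 100 bp of that KO Sox2 summit. Sall4 had Oct4 at 48 and KO Nanog at 10 without Sox2. Other genes of the list with a site included Prdm14, Nr0b1, Tead4, Jarid2 and Lin28a.

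Among the other gene lists, COMPASS and Polycomb genes had 6 of 21 nearest to a Nanog-gain site, neuroectoderm regulators 8 of 24, DNA methylation genes 3 of 14, signalling genes 5 of 27, formative and primed genes 2 of 14, mesoderm and cardiac regulators 3 of 21, endoderm and trophoblast regulators 1 of 19 and 2-cell stage genes 0 of 14. The share of all coding genes is the 5.18% given above. Since these lists differ in how many Oct4 sites they have, the share of their WT-specific sites in the class is set against the 10.5% over all genes. It was 29.6% for COMPASS and Polycomb genes (8 of 27) and 19.0% for DNA methylation genes (4 of 21). These are small counts without an interval, and 3 of the 8 COMPASS and Polycomb sites were of shared sequence. For the lists that follow the share is again that of WT-specific sites in the class. It was near 10.5% for neuroectoderm regulators at 11.0% (8 of 73), mesoderm and cardiac regulators at 12.1% (4 of 33) and signalling genes at 9.23% (6 of 65). It was 4.35% for both the formative genes (2 of 46) and the endoderm and trophoblast regulators (1 of 23), and 0 of 5 sites for 2-cell stage genes.

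Phc1, a Polycomb subunit, had a site 625 bp upstream of its start with an octamer, Oct4 at 91 reads, KO Nanog at 36 and no Sox2. Wdr82, a subunit of the Setd1 COMPASS complexes, had Oct4 at 83 and KO Nanog at 13, and Ezh1, a Polycomb methyltransferase, 70 and 28. All 3 were in H3K4me3 in both genotypes. Of the DNA demethylases, Tet2 had a site 11.6 kb into its gene with Oct4 at 69 and KO Nanog at 18, and Tet1 one 3.48 kb into its gene, at the 100 bp limit described above.

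The neuroectoderm sites with the tallest Oct4 summits were in Nes, an intermediate filament of neural progenitors (96, KO Nanog 19, Sox2 54 in WT and 114 in KO), near Sox11 (91 and 21) and in Meis2 (86 and 15). The Nes site was in H3K4me3 and H3K27me3 in both genotypes, the Sox11 site in H3K27me3 in WT only, and the Meis2 site in H3K4me3 in both and H3K27me3 in WT only. Of the mesoderm regulators, the site near Msx2 (65 and 18) had H3K4me3 in WT only and H3K27me3 in both, the site 4.33 kb upstream of T, the brachyury gene (48 and 11), had H3K4me3 in both and H3K27me3 in WT only, and the Meox1 site (40 and 12) had neither. Fzd5, a Wnt receptor, had a site in its untranslated region with Oct4 at 89 and KO Nanog at 29, and Id2, a target of BMP signalling, and Tcf7l1, a Wnt pathway repressor, had Oct4 at 70 and 69. Etv5 and Fgf15 of the formative list had Oct4 at 50 and 48, and Dab2, of the endoderm list, had 25.

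The tallest WT Oct4 summit of the class, 161 reads with KO Nanog at 74 and no Sox2, lay at chr17:39981536, an intergenic window of 70.3% G and C that was 364.0 kb from the nearest coding start, Pgk2. Intergenic and intronic refer to protein-coding genes only, and annotated genome repeats were not looked up, so these tall sites may lie in repeated sequence. Sites 320.9 kb from Igfbp3 and in an intron of Accn1 followed, both with Oct4 at 141 reads, with KO Nanog at 27 and 24 and Sox2 in both genotypes, and then a site of shared sequence in an intron of Zc3h7a with 135 and 20. The tallest KO Nanog summit, 75 reads, lay 26.4 kb from Stoml1 with Oct4 at 106 and Sox2 at 90 in WT and 165 in KO. A site in an intron of Zyg11a (nearest start Echdc2) had KO Nanog at 57, Oct4 at 126 and Sox2 at 52 and 100, and one 136.7 kb from Gm17697 had 54, 89, 38 and 120 in the same order and was of shared sequence. Of the 7 sites in this paragraph, the Accn1, Stoml1 and Gm17697 ones were in H3K4me3 in both genotypes, the Zc3h7a one in WT only, and the other three in neither.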

How the data were processed

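ChIP-seq lists of Oct4, Sox2 and Nanog summits, histone domains and Uhrf1 windows were taken as deposited, 1 list per library. The authors mapped reads to mm9 with Bowtie2 2.1.0, keeping 1 alignment per read, called factor peaks with MACS, called histone domains against input with RSEG, and called Uhrf1 windows of 10 kb over input. The factor lists hold a signal deposited as whole reads at the summit, not scaled to depth. Histone lists were deposited with a signal (reads per bin, averaged over the domain) and a domain score. The score increases with the number of bins and served here only as a filter. Uhrf1 windows have no value. The total reads behind each list were not used here.

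Samples were grouped by title. The NCBIM37 assembly is mm9, and none of 530 pairs of list and chromosome passed a chromosome end. Genes came from GENCODE vM1, and a gene start is its outermost annotated base. The RefSeq promoter table is of another build and was not used. The 5 members on unplaced sequence have no gene or motif value. Overlaps and motifs were computed with Python 3.11.15 and numpy 2.4.6, and plots with matplotlib 3.10.9. Class calls and intervals were tested on simulated data. Height groups split the WT-specific sites into 5, with differences weighted by members and a normal interval. The members, gene lists and named sites (the 4 tallest by each factor, sites at genes of the fixed lists, genes with most members, 3 sites in Uhrf1 windows and those at the 100 bp limit) were chosen with earlier results of these data known. The measures of shared sequence, U1 genes and mark gain were added after the data were seen. Alternatives were summit distances of 50, 200 and 500 bp, taller summits, stronger domains, other widths, height groups and unshared sequence.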

Additional observations from a re-analysis of the deposited data

Results flagged for a closer look

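The difference between genotypes in the share of Nanog-gain sites under H3K4me3 changed sign between stages, and this change was not tested because each stage and genotype was 1 library. KO minus WT was -8.88 percentage points in mESC, then -7.06, 11.2 and 5.77 in EBs of weeks 1, 2 and 3. Over all WT Oct4 sites the same differences were -8.16, -6.16, 5.54 and 3.74 points. At week 2 the KO H3K4me3 list covered less of the chromosomes than the WT list (5.82% against 7.75%), although it covered more of these sites. H3K27me3 at the Nanog-gain sites likewise changed sign, being -22.6 points in mESC, 1.52 in week 1 EBs, -11.1 in week 2 EBs and -11.4 in week 3 EBs, which was not tested either. Of the chromosomes, the H3K27me3 lists covered 3.17% in KO and 36.1% in WT mESC, 6.78% and 3.81% at week 1, 17.6% and 43.9% at week 2, and 15.8% and 29.8% at week 3, so the sign at each stage is that of the lists as a whole.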

How the results depend on the processing

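No paired analysis was possible because each combination of genotype, stage and antibody was 1 library and no test was run. Of 72 alternatives over 20 results, 38 moved the value by less than its interval. The cause of the other changes was not tested. The share of WT-specific Oct4 sites that were Nanog-gain sites was 11.2% with summits matched within 200 bp, 11.5% within 500 bp and 14.6% with only the taller summits of each list. With only the higher-scored domains, WT and KO H3K4me3 covered 32.5% and 27.6% of the sites, WT H3K27me3 21.1%, and WT and KO H3K9me3 30.7% and 48.2%. At the sites with taller Oct4 summits, H3K4me3 covered 49.2% in WT and 40.7% in KO. Promoter sites were 3.20% at 1 kb and 14% at 5 kb, and octamer sites 7.31% within 25 bp.

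Leaving out sites that share 31 bases, an alternative chosen after seeing the data, gave 51.8% (WT H3K4me3), 39.8% (KO H3K4me3), 29.7% (WT H3K27me3), 30.5% (WT H3K9me3), 50.3% (KO H3K9me3), 0.673% (Uhrf1) and 8.30% (promoter). Differences from Sox2-gain sites became -6.82 points (WT H3K4me3), -0.222 (Uhrf1) and -9.30 (promoter). Differences from no-gain sites became -4.38 (WT H3K4me3, reversed), -1.47 (WT H3K9me3), -0.877 (Uhrf1), -6.06 (promoter) and 1.58 (octamer). Within height groups, differences from Sox2-gain sites became -3.20 (Uhrf1), -3.59 (promoter) and -0.615 (octamer), and from no-gain sites 3.98 (WT H3K4me3), -4.67 (Uhrf1) and 2.27 (octamer). With 1 library per group and unscaled heights, an absent summit and a summit below the caller's limit cannot be told apart.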

Other observations

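Besides the U1 genes, a few Nanog-gain sites lay in or beside other small RNA genes, a feature looked at after the data were seen. The site in the gene of 7SK, the RNA that holds back the elongation factor P-TEFb, had WT Oct4 at 36 reads, KO Nanog at 9 and Sox2 at 33 in WT and 51 in KO, and was in H3K4me3 in both genotypes. Sites beside mmu-mir-2134-1 and mmu-mir-2134-2, both of shared sequence, had Oct4 at 82 and 53 and KO Nanog at 12 and 6. None of 1313 Nanog-gain sites lay in a small nucleolar RNA gene, against 0.0551% of all WT Oct4 sites and 7 of 7813 no-gain sites (0.0896%), too few to compare. In long intergenic RNA genes lay 32 Nanog-gain sites (2.44%, against 2.87% of all WT Oct4 sites).

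The sites were unevenly spread over the chromosomes. Chromosome 11 held 121, or 0.993 per Mb, and the X chromosome 37, or 0.222 per Mb. As a share of WT-specific Oct4 sites, they were 12.4% on chromosome 11 and 7.37% on the X chromosome.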
